A study of Mus musculus with 54 samples.

Results

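Genes of the insulin, IGF and INSL3 family were followed across both sides of mouse ovarian follicles cultured with and without human chorionic gonadotropin (hCG), an analog of luteinizing hormone. They were chosen by symbol, with earlier results of these data known, and are 10 of the 25149 genes in the tables. The set holds the ligand genes *Igf1*, *Igf2* and *Insl3*, the receptor genes *Igf1r* and *Insr*, and the binding protein genes *Igfbp2*, *Igfbp3*, *Igfbp4*, *Igfbp5* and *Igfbp7*. All 10 had a count in at least 1 library. Follicles came from CD-1 mice aged 14 to 16 days and grew in alginate, a hydrogel, for 8 days. They then spent 12 h in a maturation medium that held serum, EGF and recombinant FSH for every group, and hCG for the post-hCG groups only. Each follicle was cut, and RNA of the sides was read by Smart-Seq2 RNA-seq, a protocol for very small amounts of RNA. Without hCG there were 15 libraries of putative unruptured sides and 14 of putative ruptured sides, where no rupture had occurred. The post-hCG groups held 12 libraries of unruptured sides and 13 of ruptured sides, where the follicle wall had opened.

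The culture system limits what these groups model. The follicles were isolated from prepubertal mice and matured outside the ovary, and the growth medium held insulin, so the follicles met insulin and serum factors that did not come from their own cells. The labels name the tissue as the cumulus-oocyte complex, whereas the study's methods state that this complex was removed. Transcripts of 10 oocyte markers had a summed median of 0.20 TPM (a level scaled for gene length and library size) or less in every group, and 1 library, putative unruptured replicate 1, stood apart at 204 TPM. Transcripts of 10 granulosa markers were present in every library, with a lowest sum of 873 TPM. Sums of 6 cumulus markers had medians of 7.22 TPM (putative unruptured), 12.6 TPM (putative ruptured), 21.4 TPM (unruptured) and 18.9 TPM (ruptured). The highest cumulus sum was 99.7 TPM, in putative ruptured replicate 4. Whether cumulus cells were left in the sides was not tested. Library totals ran from 1497071 to 2834734 counts, so 3 counts, taken as the floor of detection, were worth 1.06 CPM (a count scaled to the library total) in the deepest library, for counting error only. The labels tie no library to an animal, culture or follicle, so sides of the same follicle could not be paired. The p-values measure the spread between these libraries only.

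Insulin-like growth factors act through the IGF1 receptor and, more weakly, the insulin receptor, both tyrosine kinases that signal through the PI3K, AKT and mTOR kinases. Binding proteins secreted into the follicular fluid hold the ligands away from the receptors until proteases release them. In the mouse follicle, granulosa cells make IGF1, which acts together with FSH during growth. INSL3 is a peptide of the relaxin family that theca cells, the steroid-producing layer around the granulosa, make in large amounts, and its receptor is RXFP2.

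Positions are on GRCm38, and promoters are shown for 4 members with large differences between groups, of which *Igf1* and *Igfbp4* also held a motif match. These are not the 4 largest differences. *Igfbp5*, not shown, differed 6.69-fold with hCG on the ruptured side, against at most 4.13-fold for *Igfbp4*, and its window held 0 matches. *Igf1* spans chr10:87858265-87937042 on the plus strand, *Insl3* chr8:71689214-71690575 (plus), *Igfbp3* chr11:7206086-7213923 (minus) and *Igfbp4* chr11:99041244-99054392 (plus). *Igfbp2* at chr1:72824503-72852474 (plus) and *Igfbp5* at chr1:72857932-72874884 (minus) are neighbours on opposite strands, with 5457 bases and 0 annotated genes between them. *Igf1r* lies at chr7:67952827-68233668 (plus), *Igf2* at chr7:142650766-142666816 (minus), *Insr* at chr8:3122061-3279617 (minus) and *Igfbp7* at chr5:77349240-77408041 (minus). RefSeq promoter windows, from 250 bases before to 50 bases after a start site on GRCm38.p6, were found for 9 of the 10 members, 13 windows in all, each read 5′ to 3′ on the gene's own strand. They are chr10:87860861-87861160 for *Igf1*, chr8:71689002-71689301 for *Insl3*, chr11:7213874-7214173 for *Igfbp3* and chr11:99040994-99041293 for *Igfbp4*, with motif matches in capitals:
Igf1: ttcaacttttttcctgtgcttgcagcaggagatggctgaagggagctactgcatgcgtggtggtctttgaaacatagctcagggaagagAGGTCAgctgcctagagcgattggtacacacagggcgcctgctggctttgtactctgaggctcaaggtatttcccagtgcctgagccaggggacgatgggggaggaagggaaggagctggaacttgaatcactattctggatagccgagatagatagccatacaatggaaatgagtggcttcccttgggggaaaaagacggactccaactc
Insl3: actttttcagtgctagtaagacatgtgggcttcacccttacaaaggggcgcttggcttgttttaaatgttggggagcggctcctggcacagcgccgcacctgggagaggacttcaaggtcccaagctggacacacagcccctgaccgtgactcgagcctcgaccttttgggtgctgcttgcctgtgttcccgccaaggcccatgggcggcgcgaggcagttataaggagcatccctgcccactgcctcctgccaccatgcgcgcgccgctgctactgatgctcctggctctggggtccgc
Igfbp3: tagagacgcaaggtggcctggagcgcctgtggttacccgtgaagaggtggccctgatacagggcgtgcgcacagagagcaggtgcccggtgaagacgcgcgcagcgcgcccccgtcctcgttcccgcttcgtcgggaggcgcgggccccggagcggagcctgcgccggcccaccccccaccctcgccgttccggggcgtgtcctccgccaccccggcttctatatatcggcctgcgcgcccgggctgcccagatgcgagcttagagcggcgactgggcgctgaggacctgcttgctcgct
Igfbp4: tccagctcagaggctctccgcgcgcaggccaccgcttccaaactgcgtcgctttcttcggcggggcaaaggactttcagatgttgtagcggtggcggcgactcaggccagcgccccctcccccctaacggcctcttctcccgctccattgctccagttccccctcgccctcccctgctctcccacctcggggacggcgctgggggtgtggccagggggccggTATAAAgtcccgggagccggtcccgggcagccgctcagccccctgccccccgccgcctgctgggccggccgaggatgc
AAGGTCA (the NR5A site), its shorter form AGGTCA (a nuclear receptor half-site, which every AAGGTCA also holds), GTAAACA (FOXO) and TGACGTCA (the cAMP response element) were searched on both strands, and TATAAA (the TATA box) on the given strand. *Igf1* held AGGTCA, at position −161 from the start site, as did 16.3% of all 32851 windows. That *Igf1* window lies inside the gene span given above, and no window covered the 5′ end of the span at 87858265. *Igfbp4* held TATAAA at position −28, as did 8.32%. Beyond the windows shown, *Igf1r* held AAGGTCA in reverse (4.72% of windows) and an *Igf2* window held AGGTCA in reverse. No window of the members held GTAAACA (3.65%) or TGACGTCA (1.79%), which says only that these letters were absent from the windows.

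**Figure D1:**
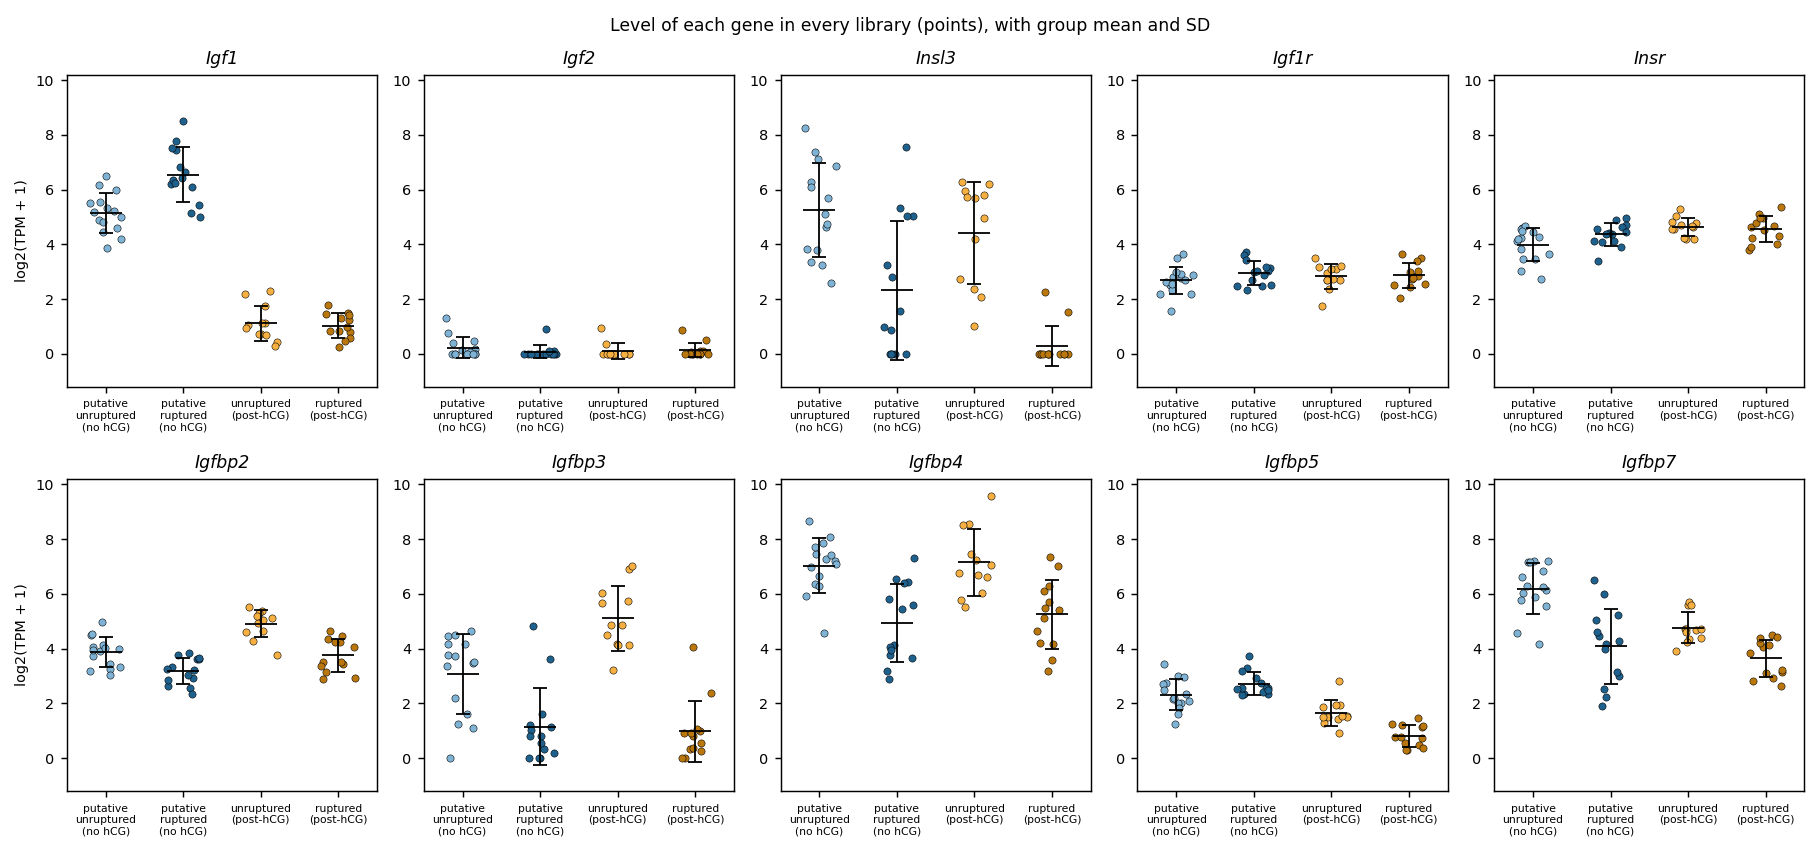
Level of the 10 genes as log2(TPM + 1) in each of the 54 libraries (points), by side and medium, with the group mean and SD (horizontal line and bar). *Igf1* had medians of 0.98 and 0.99 TPM in the post-hCG groups and was at 13.5 TPM or more in every library without hCG, while *Insl3* was at 0 in 11 of 13 libraries of the ruptured side post-hCG.

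Groups were compared with edgeR's quasi-likelihood test on counts, with Benjamini-Hochberg adjustment over all genes tested and a false discovery rate (FDR) of 0.05. A positive log2FC marks a higher level on the ruptured side in a comparison of sides, and with hCG in a comparison of media. Without hCG, 6 of the 9 members that passed the expression filter differed between the sides, 3 higher and 3 lower on the putative ruptured side, against 17.8% of all 9063 genes tested (8.84% higher and 8.96% lower). The higher genes were *Igf1*, *Igf1r* and *Insr*, and the lower ones *Igfbp2*, *Igfbp4* and *Igfbp7*. By limma on log2(TPM + 1) the split was 1 higher and 5 lower. The median log2FC was −0.73 over these 9 members and −0.0058 over all genes. Post-hCG, 6 of 7 members differed, *Igf1r* higher and all 5 binding proteins lower on the ruptured side, against 21.4% of 8585 genes (10% higher and 11.3% lower). With hCG on the unruptured side, 6 of 9 members differed, 3 higher and 3 lower, against 53.1% of 9320 genes (25.4% higher and 27.7% lower). On the ruptured side 4 of 7 differed, 2 higher and 2 lower, against 60.1% of 8531 genes (29.7% higher and 30.4% lower), so these shares lay near the background in both comparisons of the media. Each group entered one comparison of sides and another of media, so these comparisons share libraries. Because the members were chosen with earlier results known, shares above those of all genes are no test of the family. Over all genes the split depended on the scaling. With library totals only in place of TMM, 585 genes were higher and 905 lower without hCG (801 and 812 with TMM), and 397 and 1830 post-hCG (862 and 971). The same scaling gave 1455 and 3844 with hCG on the unruptured side (2365 and 2582) and 1376 and 4242 on the ruptured side (2532 and 2597). By limma on log2(TPM + 1), 211 were higher and 2070 lower post-hCG, and 1450 and 2801 with hCG on the ruptured side. Library totals shifted the median log2FC of all genes to −0.057, −0.14, −0.25 and −0.33 in the 4 comparisons.

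**Figure D2:**
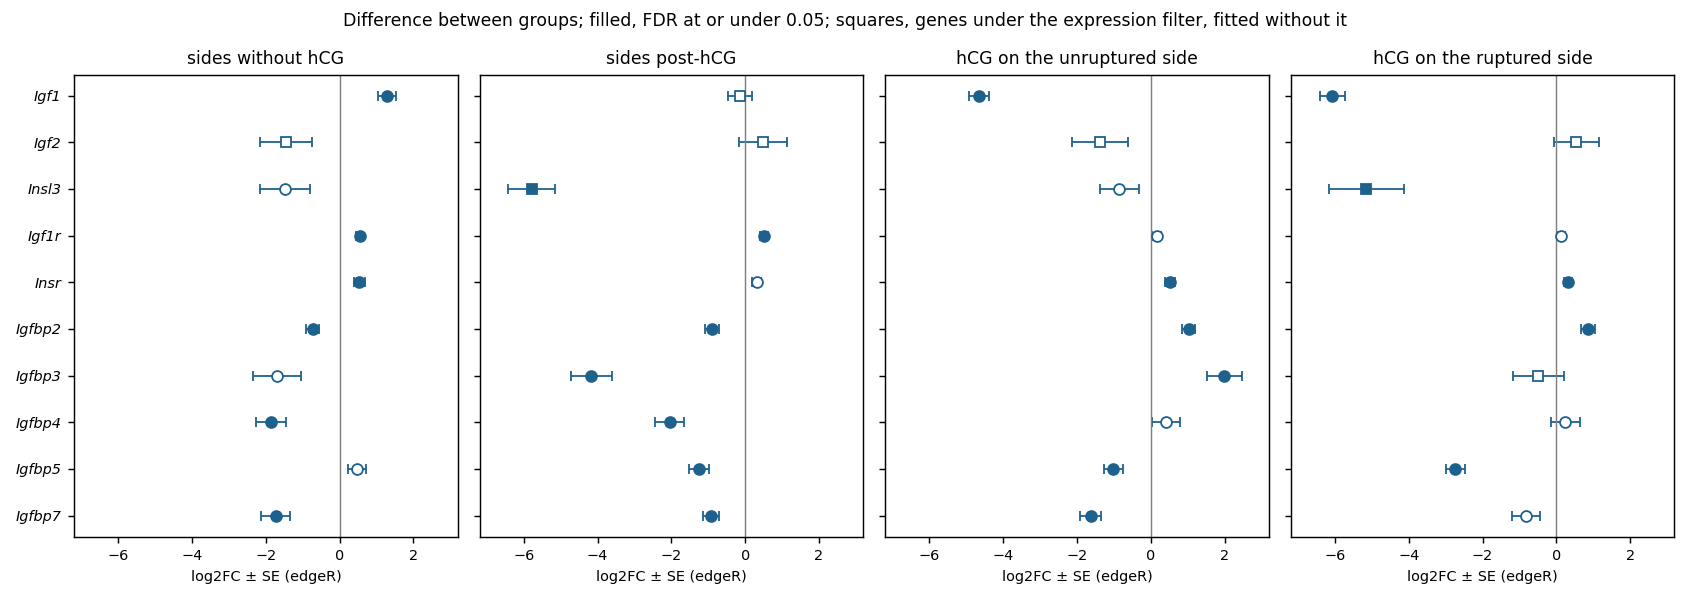
Difference in each of the 4 pairwise comparisons as log2FC ± SE from edgeR, with positive values higher on the ruptured side or post-hCG. Filled symbols passed an FDR of 0.05, and squares are genes under the expression filter, fitted without it. *Igf1* reached −4.65 and −6.08 with hCG, and *Igfbp3* differed between the sides by −4.17 post-hCG.

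*Igf1*, the growth factor of the granulosa, fell with hCG on both sides. The putative unruptured side held 13.5 to 88.2 TPM (median 35.1), and the putative ruptured side 31.0 to 363 TPM (median 81.8). Post-hCG the unruptured side held 0.21 to 3.88 TPM (median 0.98) and the ruptured side 0.20 to 2.42 TPM (median 0.99). On either side every library post-hCG lay below every library without hCG. The edgeR difference was −4.65 (SE 0.27, FDR = 1.57e-15) on the unruptured side, 25.1-fold lower, and −6.08 (SE 0.34, FDR = 1.88e-16) on the ruptured side, 67.5-fold lower. Without hCG the putative ruptured side was 2.45-fold higher (log2FC 1.29, SE 0.24, FDR = 0.000302), where 12 of 14 libraries exceeded the median of the other side. Post-hCG, 111 counts over 12 libraries and 102 over 13 were left, and *Igf1* fell under the expression filter for the sides. Fitted without the filter the sides differed by −0.14 (SE 0.32, FDR = 0.841), and a permutation test of log2(TPM + 1) gave a difference of −0.075 (p = 0.745, 0.839 after adjustment over 8 tests). An antisense gene, *Igf1os*, overlaps the locus, and the Nextera XT libraries do not mark strand. The 10 granulosa markers moved in the same comparisons. Their sums had medians of 4097 TPM (putative unruptured), 14362 TPM (putative ruptured), 1569 TPM (unruptured) and 1318 TPM (ruptured). Without hCG, 8 of 9 tested were higher on the putative ruptured side, against 8.84% of all genes. With hCG, 7 of 9 were lower on each side, against 27.7% (unruptured) and 30.4% (ruptured) of all genes. On the unruptured side 2 were higher with hCG, and on the ruptured side 1. All 6 markers of luteinizing cells were higher with hCG on both sides, against 25.4% and 29.7% of all genes. Their median log2FC was 2.97 and 3.64. The part of these cells in the *Igf1* differences was not tested. In bulk libraries, fewer cells of a type and less RNA per cell cannot be told apart.

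*Insl3*, the theca peptide, was nearly absent from the ruptured side post-hCG and spread widely elsewhere. The putative unruptured side held 4.95 to 299 TPM (median 33.3). The putative ruptured side held 0 to 185 TPM (median 1.49), and 5 of its 14 libraries had no count. Post-hCG the unruptured side ran from 1.02 to 76.1 TPM (median 40.3), and all 12 libraries held counts. On the ruptured side 11 of 13 libraries were at 0 and the other 2 held 5 and 2 counts, 7 counts in all, or 0.24 CPM against 18.3 CPM for the other side. The ranges overlapped through those 2 libraries only. *Insl3* was under the expression filter there, and without the filter the side difference was −5.79 (SE 0.64, FDR = 1.16e-08, 10.8% of genes called), with a permutation p of 2e-05 for log2(TPM + 1), the smallest that the resampling can give, 0.00016 after adjustment over 8 tests. With hCG on the ruptured side the same kind of fit gave −5.15 (SE 1.02, FDR = 8e-05, 33.7% of genes called, permutation p = 0.0075, adjusted 0.03). In that fit, putative ruptured replicate 11 held 60.1% of the 316 counts of the group without hCG. On the unruptured side the value was −0.85 with hCG (SE 0.53, FDR = 0.178), and −0.44 (FDR = 0.467) without putative unruptured replicate 4, which held 30.8% of its group's counts.

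Without hCG the *Insl3* side difference of −1.49 (SE 0.67, FDR = 0.127) did not pass, and the call depended on 1 library and on the method. Putative ruptured replicate 11 held 190 of the 316 counts of its group, 60.1%, and without it the difference was −2.65 (SE 0.66, FDR = 0.00494). That library's 14 theca markers summed to 356 TPM, against a group median of 146 TPM. On log2(TPM + 1), with all libraries, limma gave −2.94 (FDR = 0.00514). The second exon of *Insl3* (404 bases, chr8:71690172-71690575) has the same ends as the last exon of a *Jak3* transcript in the GENCODE annotation, on the same strand, so reads there cannot be assigned to either gene by position. *Jak3*, a cytokine receptor kinase, had group medians of 0.78 to 1.69 TPM. It differed between the sides by 0.21 without hCG (FDR = 0.432) and by −0.64 post-hCG (SE 0.21, FDR = 0.0287), against −5.79 for *Insl3* without the filter.

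*Igf2* was barely detected, with 26 counts over all 54 libraries and a median of 0 TPM in every group. The highest library reached 1.51 TPM. It stayed under the expression filter in every comparison, and without the filter no difference passed, with FDR from 0.177 to 0.728 in the 4 pairwise comparisons, in fits that called 8.49% and 10.8% of genes between the sides and 29.5% and 33.7% between the media. Overlapping annotated genes on both strands make even these counts uncertain. *Rxfp2*, the receptor gene of INSL3, held 3 counts in all, 1 on the putative ruptured side and 2 on the unruptured side post-hCG, so levels under the floor were not detectable at this depth.

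The receptor genes kept medians within a narrow range over the groups. *Igf1r* had medians of 5.50 and 7.07 TPM on the putative unruptured and putative ruptured sides and of 6.15 and 6.17 TPM post-hCG. *Insr* had medians of 17.1, 20.2, 24.2 and 24.0 TPM in the same order. All groups overlapped for both genes. In TPM, *Insr* exceeded *Igf1r* in 54 of 54 libraries, with a median ratio of 3.08, 2.59, 3.92 and 3.88 in the same order and a lowest ratio of 1.40. Pooled counts, not scaled for gene length, were close. *Igf1r* had 60.0, 85.1, 58.0 and 76.1 CPM, and *Insr* 56.3, 80.2, 71.4 and 79.5 CPM, in the same order. The ratio thus rests mostly on the length scaling of TPM. The TPM given per count also varied between libraries for *Igf1r*. Putative unruptured replicate 10 had 76 counts at 1.98 TPM, and replicate 2 of that group 144 counts at 11.4 TPM.

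Fitted on counts, *Igf1r* was higher on the ruptured side in both media. The log2FC was 0.54 (SE 0.10, FDR = 0.00026) without hCG and 0.51 (SE 0.11, FDR = 0.00061) post-hCG, and hCG left values of 0.16 (FDR = 0.255) and 0.13 (FDR = 0.243) on the unruptured and ruptured sides. *Insr* was higher on the putative ruptured side (0.54, SE 0.14, FDR = 0.00601), at 0.31 post-hCG (SE 0.12, FDR = 0.0621), and rose with hCG on the unruptured side (0.52, SE 0.15, FDR = 0.00327) and on the ruptured side (0.31, SE 0.12, FDR = 0.0223). These calls depended on the scale. On log2(TPM + 1), limma gave 0.28 (FDR = 0.35) and 0.037 (FDR = 0.897) for *Igf1r* between the sides, and 0.38 (FDR = 0.211) for *Insr* without hCG and 0.20 (FDR = 0.339) with hCG on the ruptured side. The *Insr* side difference post-hCG was −0.077 (FDR = 0.755) by limma, 0.16 (FDR = 0.438) with library totals only, and 0.34 (FDR = 0.0487) without ruptured replicate 4. Scaled by library totals only, which moved the median of all genes to −0.25 and −0.33 in the comparisons of the media, *Insr* gave 0.29 (FDR = 0.147) and −0.0063 (FDR = 0.971) with hCG.

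*Igfbp4*, which encodes a binding protein that restrains IGF action in the follicle, was the most abundant binding protein transcript and was lower on the ruptured side of both media. The putative unruptured side held 23.0 to 406 TPM (median 148), and the putative ruptured side 6.40 to 158 TPM (median 29.5). Post-hCG the values were 44.5 to 753 TPM (median 120) for unruptured and 8.11 to 162 TPM (median 41.2) for ruptured sides. The ranges overlapped, with 13 of 14 and 11 of 13 libraries of the ruptured side below the median of the other side. The log2FC was −1.87 (SE 0.41, FDR = 0.0014) without hCG and −2.04 (SE 0.39, FDR = 0.000247) post-hCG, 3.66-fold and 4.13-fold lower. Unruptured replicate 4, post-hCG, held 34.0% of its group's counts, and without it the post-hCG difference was −1.61 (FDR = 0.000734). With hCG, *Igfbp4* differed by 0.41 (SE 0.38, FDR = 0.384) on the unruptured side, and by −0.024 without that library, and by 0.24 (SE 0.39, FDR = 0.617) on the ruptured side.

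*Igfbp7*, whose product binds IGFs weakly and sits in basement membranes, was lower on the ruptured side as well. Its medians were 75.1 TPM (16.8 to 145, putative unruptured) and 17.7 TPM (2.79 to 89.7, putative ruptured) without hCG, and 24.7 TPM (14.0 to 50.7) and 13.2 TPM (5.23 to 21.7) post-hCG. The side difference was −1.73 (SE 0.40, FDR = 0.00244) without hCG and −0.92 (SE 0.21, FDR = 0.00177) post-hCG. The latter did not pass when all 4 groups were fitted together (FDR = 0.0782). With hCG it fell on the unruptured side (−1.63, SE 0.28, FDR = 1.18e-05), where 12 of 12 libraries lay below the median without hCG. On the ruptured side the value was −0.82 (SE 0.39, FDR = 0.0668), and −1.15 (FDR = 0.0112) with library totals only. Its span overlaps *Polr2b* and *Gm34648* on the opposite strand.

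*Igfbp3*, which encodes the main IGF carrier of serum, rose with hCG on the unruptured side. Its level there was 0 to 24.0 TPM (median 10.4) without hCG and 8.30 to 129 TPM (median 28.3) post-hCG, and 11 of 12 libraries exceeded the median without hCG. The difference was 2.0 (SE 0.47, FDR = 0.000623), 3.99-fold higher. Ruptured sides held 0 to 27.2 TPM (median 0.75) without hCG and 0 to 15.9 TPM (median 0.75) post-hCG. Post-hCG the sides differed by −4.17 (SE 0.56, FDR = 2.04e-06), 18-fold, and 12 of 13 ruptured libraries lay below every unruptured library. The exception was ruptured replicate 4, which held 154 of the 234 counts of its group. Without it the difference was −5.46 (FDR = 1.5e-08).

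Without hCG the *Igfbp3* sides differed by −1.70 (SE 0.65, FDR = 0.0648), which did not pass. Putative ruptured replicate 12 held 174 of the 307 counts of its group, and without it the difference was −2.87 (SE 0.61, FDR = 0.0012). Its theca markers summed to 648 TPM and its oocyte markers to 32.4 TPM, the highest oocyte sum of its group. With all libraries, limma on log2(TPM + 1) gave −1.91 (FDR = 0.00695). Leaving out putative ruptured replicate 11 (−1.98, FDR = 0.0392) or putative unruptured replicate 1 (−1.78, FDR = 0.0491) also gave a call. On the ruptured side *Igfbp3* was under the expression filter for hCG, and without the filter the value was −0.48 (SE 0.70, FDR = 0.621). It was 0.68 (FDR = 0.426) without putative ruptured replicate 12 and −1.77 (FDR = 0.054) without ruptured replicate 4.

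*Igfbp2* was lower on the ruptured side and rose with hCG on both sides. Its product binds IGF2 more tightly than IGF1. Its medians were 14.5 TPM (7.29 to 30.7, putative unruptured) and 8.50 TPM (4.09 to 13.4, putative ruptured) without hCG, and 32.1 TPM (12.6 to 45.3) and 10.4 TPM (6.44 to 23.8) post-hCG. Every library of the ruptured side lay below the median of the other side in both media. The side difference was −0.73 (SE 0.18, FDR = 0.00411) without hCG and −0.90 (SE 0.18, FDR = 0.000412) post-hCG. The difference with hCG was 1.03 (SE 0.17, FDR = 9.94e-06) on the unruptured side and 0.85 (SE 0.19, FDR = 0.000231) on the ruptured side, although the ranges overlapped.

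*Igfbp5*, a binding protein that also attaches to the extracellular matrix, fell with hCG. Its medians were 3.63 TPM (1.39 to 9.92) and 4.94 TPM (3.99 to 12.4) without hCG, and 1.88 TPM (0.90 to 6.12) and 0.69 TPM (0.24 to 1.73) post-hCG, on the unruptured and ruptured sides. On the ruptured side every library post-hCG lay below every library without hCG, and the difference was −2.74 (SE 0.25, FDR = 4.24e-11), 6.69-fold lower. On the unruptured side it was −1.02 (SE 0.26, FDR = 0.00123). The sides differed by 0.47 without hCG (SE 0.24, FDR = 0.175) and by −1.26 post-hCG (SE 0.26, FDR = 0.000633).

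The interaction term tested whether the side difference itself depended on hCG, as the post-hCG difference minus the difference without hCG. Of 9 members tested, 3 passed, against 8.91% of 10013 genes (4.25% higher and 4.65% lower), and all 3 were negative. *Igfbp5* gave −1.73 (SE 0.38, FDR = 0.00183), *Igf1* −1.44 (SE 0.46, FDR = 0.0361) and *Insl3* −4.33 (SE 1.44, FDR = 0.0464). The *Igfbp5* call held without the expression filter, whereas *Igf1* (FDR = 0.0588) and *Insl3* (FDR = 0.066) missed it there (3.21% of genes called). Without putative ruptured replicate 11 the *Insl3* term was −3.16 (FDR = 0.153), and without unruptured replicate 4, post-hCG, the *Igf1* term was −1.30 (FDR = 0.0763). The *Igf1* call was also lost without ruptured replicate 4 (FDR = 0.0519), and the *Insl3* call without putative unruptured replicate 7 (FDR = 0.0525), putative ruptured replicate 12 (FDR = 0.0571) or unruptured replicate 12 (FDR = 0.0519). On log2(TPM + 1), limma gave −1.19 for *Insl3* (FDR = 0.473). *Igfbp3* gave −2.49 (SE 0.91, FDR = 0.0749), −3.76 (FDR = 0.00653) without ruptured replicate 4 and −1.32 (FDR = 0.409) without putative ruptured replicate 12. For *Igf1r* (−0.029, SE 0.15, FDR = 0.94), *Insr* (−0.22, SE 0.19, FDR = 0.542), *Igfbp2* (−0.18, SE 0.27, FDR = 0.751), *Igfbp4* (−0.17, SE 0.58, FDR = 0.905) and *Igfbp7* (0.82, SE 0.49, FDR = 0.332) no difference between the media was detected.

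Summed over the 5 binding protein genes, the level was higher on the unruptured side, with medians of 252 and 61.7 TPM without hCG and of 240.0 and 61.0 TPM post-hCG. *Igfbp4* took the largest share in 47 of 54 libraries, and its median share ran from 45.3% to 57.7% over the groups. *Igfbp7* was next without hCG, at 34.1% and 22.7% on the unruptured and ruptured sides, and took 11.1% and 18.1% post-hCG. On the unruptured side *Igfbp3* took a median of 3.03% without hCG and 14.1% post-hCG, with a highest value of 41.3%, and was at 0.80% and 0.95% on the ruptured sides. *Igfbp5* took a median of 9.55% on the putative ruptured side and 1.44% or less in the other groups. The ratio of *Igf1* to the summed binding proteins in TPM had medians of 0.12 and 1.05 on the putative unruptured and putative ruptured sides and of 0.0029 and 0.014 post-hCG. It exceeded 1 in 7 of 14 putative ruptured libraries and 1 of 15 putative unruptured ones, and in none of the 25 post-hCG.

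**Figure D3:**
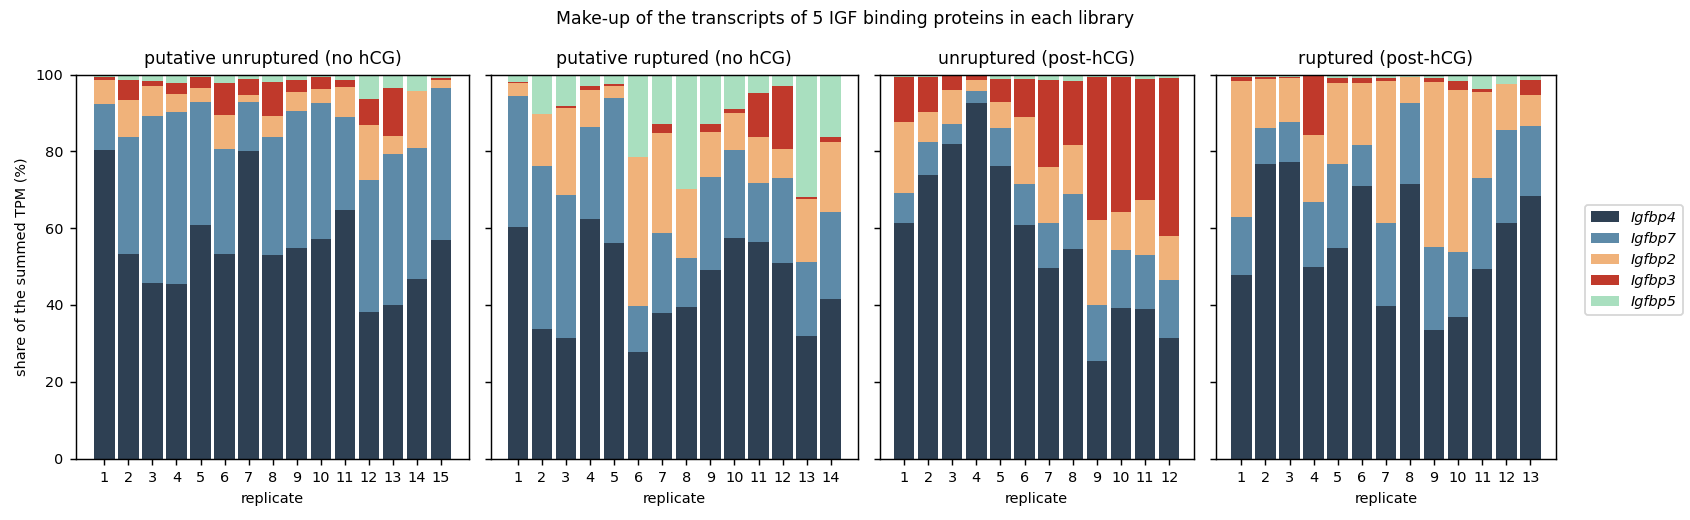
Share (%) of each of the 5 binding protein genes in their summed TPM, 1 bar per library, by side and medium. *Igfbp4* and *Igfbp7* made up most of the sum on the putative unruptured side, and *Igfbp3* reached 41.3% on the unruptured side post-hCG.

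The order of the members within a group, set by mean log2(TPM + 1), had *Igfbp4* first in 3 groups and *Igf1* first on the putative ruptured side. The lead exceeded the SD of the difference within libraries on the putative unruptured side, and not in the other 3 groups: it was 1.60 (SD 2.13) on the putative ruptured side, 2.05 (SD 2.09) on the unruptured side and 0.69 (SD 1.14) on the ruptured side post-hCG. On the putative unruptured side the order was *Igfbp4* (7.03 ± 0.99, mean ± SD, n = 15), *Igfbp7* (6.19 ± 0.93), *Insl3* (5.26 ± 1.71), *Igf1* (5.15 ± 0.73), *Insr* (3.98 ± 0.60), *Igfbp2* (3.88 ± 0.55), *Igfbp3* (3.06 ± 1.46), *Igf1r* (2.68 ± 0.51), *Igfbp5* (2.32 ± 0.58) and *Igf2* (0.22 ± 0.38). Of the neighbours in that order, *Igfbp4* and *Igfbp7*, *Igf1* and *Insr*, and *Igfbp5* and *Igf2* differed by more than the SD of their difference within libraries, and the others did not. On the ruptured side post-hCG *Igfbp4* (5.25 ± 1.27, n = 13) was followed by *Insr* (4.56 ± 0.49) and *Igfbp2* (3.75 ± 0.61), and *Igf1* (1.03 ± 0.45) came after *Igf1r* (2.87 ± 0.45).

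The 14 theca markers had a lower median sum on the ruptured side in both media. They summed to a median of 782 TPM (67.1 to 2911, putative unruptured), 146 TPM (71.2 to 733, putative ruptured), 332 TPM (111 to 1399, unruptured) and 56.4 TPM (30.7 to 99.6, ruptured). Of 10 tested without hCG, 8 were lower and 1 higher on the ruptured side, against 8.96% and 8.84% of all genes. Post-hCG, 5 of 7 were lower and 1 higher, against 11.3% and 10% of all genes. With hCG, 7 of 10 were lower on the unruptured side and 4 of 5 on the ruptured side, and 0 were higher. Of all genes, 27.7% and 30.4% were lower in these comparisons. Post-hCG, 11 of the 14 markers had a median above 0 TPM on the unruptured side, and 8 of the 14 on the ruptured side. *Cyp17a1*, which encodes an androgen-producing enzyme, was among those with a median of 0 TPM in both post-hCG groups, as were *Gli1* and *Ogn*. With group means removed, the log2 theca sum followed *Igfbp4* (Pearson r = 0.72, Spearman rho = 0.71), *Igfbp7* (r = 0.59, rho = 0.60) and *Igfbp3* (r = 0.50, rho = 0.48) more closely than *Insl3* (r = 0.31, rho = 0.29), *Igfbp5* (r = 0.31, rho = 0.34), *Igfbp2* (r = 0.24, rho = 0.22) or *Igf1* (r = −0.20, rho = −0.19), over 54 libraries whose values share library depth and TPM scaling. Sums of 7 immune markers moved the same way, with medians of 31.9 and 0.62 TPM without hCG and of 13.6 and 0.57 TPM post-hCG. Sums of 6 smooth muscle markers had medians of 34.7 and 5.43 TPM without hCG and of 4.54 and 2.38 TPM post-hCG. The part of theca, immune or smooth muscle cells in the side differences was not tested. Without putative unruptured replicate 7, the library with the highest theca sum, the differences without hCG were −1.67 for *Igfbp4* (FDR = 0.00341) and −1.55 for *Insl3* (FDR = 0.126).

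**Figure D4:**
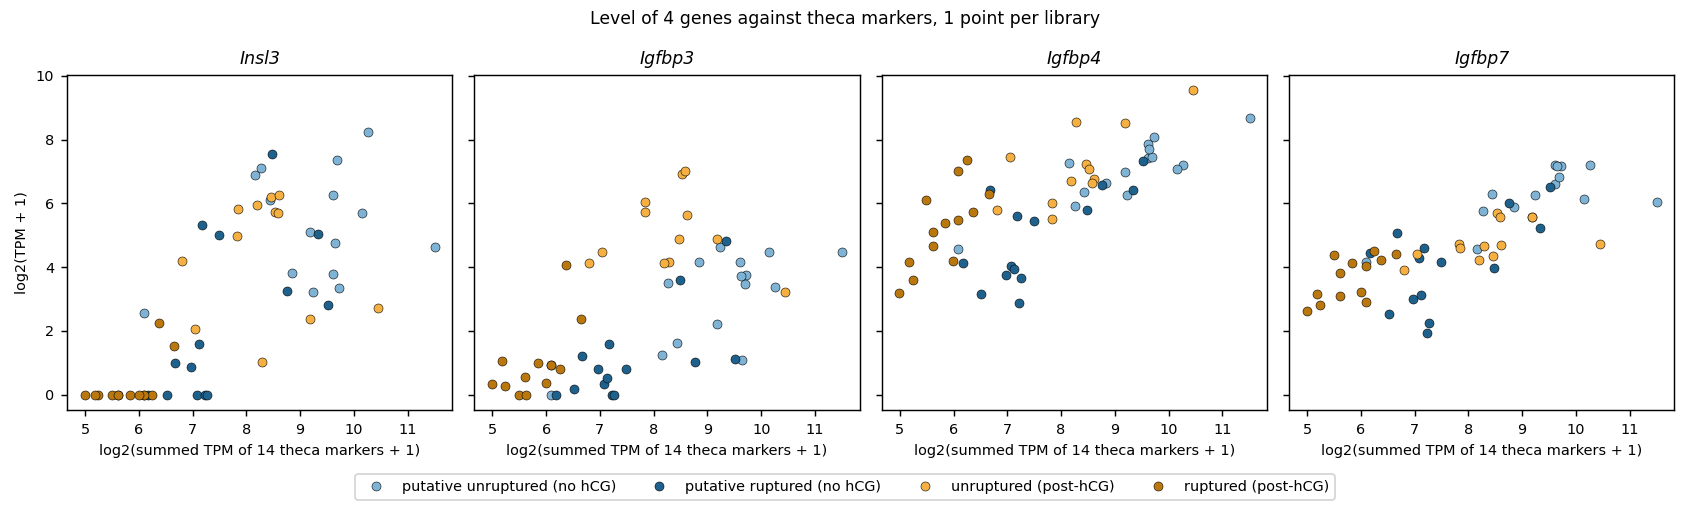
Level of *Insl3*, *Igfbp3*, *Igfbp4* and *Igfbp7* as log2(TPM + 1) against log2 of the summed TPM of 14 theca markers plus 1, 1 point per library and 1 colour per group. Libraries of the ruptured side post-hCG lay at the low end of the theca axis, and 11 of 13 had *Insl3* at 0.

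The members also varied among themselves within groups. With group means removed, the closest pairs were *Igfbp4* with *Igfbp7* (r = 0.72), *Igf1r* with *Insr* (r = 0.61) and *Insl3* with *Igfbp3* (r = 0.50), over 54 libraries. *Igf1* ran against *Insl3* (r = −0.52, rho = −0.44), *Igfbp2* (r = −0.50, rho = −0.48) and *Igfbp3* (r = −0.47, rho = −0.52). Among 9809 genes compared in the same way, those most like *Igfbp4* were *Tpm1* (r = 0.83), *Cnn2* (0.79) and *Cdh11* (0.76), which encode tropomyosin, calponin 2 and a cadherin. Those most like *Igfbp7* were *Col4a1* (0.79), *Mmp14* (0.78) and *Col4a2* (0.78), which encode basement membrane collagens and a matrix protease. *Igfbp3* was most like *Ltbp4* (0.67), *Eng* (0.67) and *Col3a1* (0.64), the last a theca marker of the list used here. *Insl3* was most like RP23-162H6.1 (0.82), *Osgin1* (0.77) and *Aldh1a1* (0.76). *Igf1* was most like *Zfp277* (0.65), *Sema3c* (0.64) and *Calm2* (0.64). *Igfbp2* had *Ctsz* (0.65), *Ap2a1* (0.63) and *Kpnb1* (0.62), *Igfbp5* had *Plod1* (0.61), *Pfkl* (0.54) and *Pygl* (0.53), *Igf1r* had *Tnrc6b* (0.78), *Ankrd11* (0.74) and *Usp48* (0.71), and *Insr* had *Ash1l* (0.78), *Sap130* (0.76) and *Ddx17* (0.76).

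A list of 51 other genes of the pathway, also chosen with earlier results of these data known, was tested in the same fits. Of 31 that passed the filter without hCG, 6 were higher and 7 lower on the putative ruptured side (41.9% called, against 17.8% of all genes), and of 29 post-hCG, 4 were higher and 6 lower on the ruptured side (34.5%, against 21.4%). With hCG, 7 of 30 were higher and 12 lower on the unruptured side (63.3%, against 53.1%), and 6 of 27 higher and 12 lower on the ruptured side (66.7%, against 60.1%). The median log2FC of these genes was 0.0071, 0.0098, −0.10 and −0.057 in the 4 comparisons, and that of all genes −0.0058, 0.011, −0.030 and −0.0012. No other ligand gene of the list passed the filter, among them the insulin genes *Ins1* and *Ins2*. For the interaction, 2 of 32 genes passed (6.25%, against 8.91% of all genes). The split depended on the scaling: with library totals only it was 3 higher and 15 lower with hCG on the unruptured side, and 2 and 15 on the ruptured side. Without the filter it was 9 and 10, and 8 and 14.

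**Figure D5:**
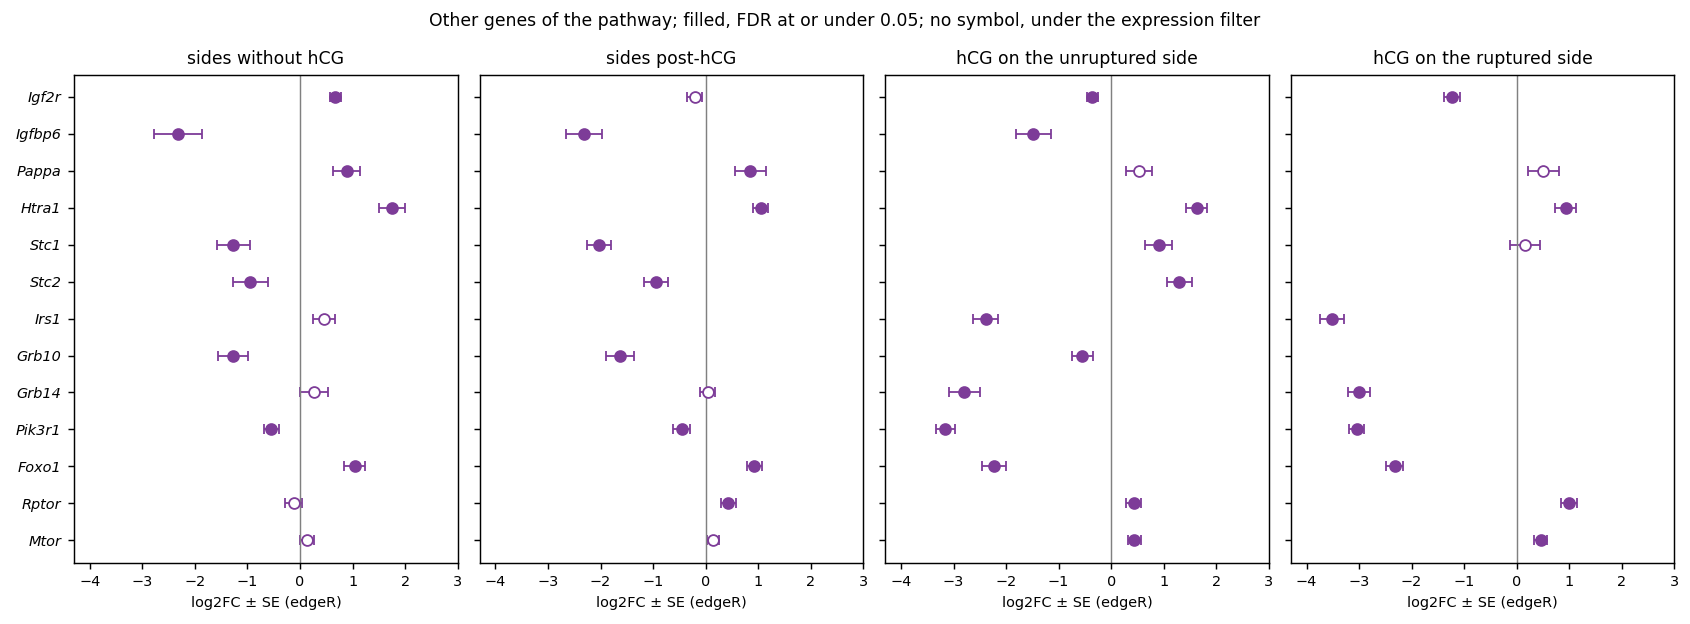
Difference of 13 other genes of the pathway in the 4 pairwise comparisons, as log2FC ± SE from edgeR. Filled symbols passed an FDR of 0.05 and missing symbols are genes under the expression filter. *Htra1* was higher on the ruptured side and with hCG in all 4 comparisons, and *Pik3r1* and *Grb14* fell by about 3 on the log2 scale with hCG.

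Of 9 listed genes for other binding proteins and the proteins that handle them, 5 were tested between the sides, and these 5 differed in both media, in the same directions, against 17.8% of all genes without hCG and 21.4% post-hCG. *Htra1*, a secreted serine protease that cleaves IGF binding proteins, was higher on the ruptured side, with medians of 84.4 and 297 TPM without hCG (log2FC 1.75, SE 0.25, FDR = 6.65e-06) and of 283 and 467 TPM post-hCG (1.05, SE 0.14, FDR = 1.81e-06). It rose with hCG by 1.63 (FDR = 5.45e-08) on the unruptured side and by 0.93 (FDR = 0.000158) on the ruptured side. *Pappa*, the protease that cleaves IGFBP4, was low, with a highest library of 1.26 TPM, and was higher on the ruptured side by 0.88 (SE 0.25, FDR = 0.0118) without hCG and by 0.85 (SE 0.30, FDR = 0.0417) post-hCG. The stanniocalcins, which inhibit that protease, were lower there. *Stc1* differed by −1.27 (FDR = 0.00361) and −2.03 (FDR = 1.01e-07), and *Stc2* by −0.94 (FDR = 0.0413) and −0.94 (FDR = 0.002), without hCG and post-hCG. On the unruptured side hCG raised *Stc1* by 0.91 (FDR = 0.00377) and *Stc2* by 1.30 (FDR = 4.16e-05). *Igfbp6*, a binding protein that prefers IGF2, had medians of 28.6 and 3.08 TPM without hCG and of 10.8 and 1.67 TPM post-hCG, and was lower on the ruptured side by −2.32 in both media (FDR = 0.000404 and 8.74e-06).

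*Igf2r*, the mannose-6-phosphate receptor that clears IGF2, was the only other receptor of the list that passed the filter. Without hCG the putative ruptured side exceeded the other 1.59-fold (log2FC 0.67, SE 0.11, FDR = 5.2e-05), and *Igf2r* was lower with hCG, by −0.36 (FDR = 0.00435) on the unruptured side and −1.23 (SE 0.15, FDR = 1.09e-08) on the ruptured side. Its interaction term was −0.88 (SE 0.18, FDR = 0.00089). *Igf2r* had medians of 1.41 and 2.16 TPM on the putative unruptured and putative ruptured sides, and of 1.1 and 0.86 TPM post-hCG. The highest library, putative unruptured replicate 5, reached 10.9 TPM on 51 counts, whereas replicate 3 of that group had 65 counts at 2.1 TPM. That peak thus did not come from more reads. The highest library post-hCG was at 1.34 TPM.

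Downstream of the receptors, among the adaptors and PI3K subunits, 7 of 10 tested were lower with hCG and 0 higher on the unruptured side, where 27.7% of all genes were lower. For the ruptured side 7 of 9 were lower and 0 higher, where 30.4% of all genes were lower. *Pik3r1*, the regulatory subunit p85 alpha, had medians of 132 and 89.6 TPM without hCG and of 16.6 and 9.88 TPM post-hCG, on the unruptured and ruptured sides, and differed by −3.16 (SE 0.18, FDR = 1.36e-15) and −3.05 (SE 0.15, FDR = 4.76e-18). *Grb14*, an adaptor that dampens the insulin receptor, had medians of 104 and 151 TPM without hCG and of 21.3 and 17.7 TPM post-hCG (−2.79, FDR = 9.79e-10, and −3.00, FDR = 1.79e-14). *Irs1*, the docking protein of both receptors, differed by −2.39 (FDR = 2.29e-10) and −3.51 (FDR = 8.28e-15), with an interaction of −1.13 (SE 0.34, FDR = 0.0266). *Grb10*, a related adaptor, was lower on the ruptured side by −1.28 (FDR = 0.00225) without hCG and −1.63 (FDR = 4.11e-05) post-hCG. *Foxo1*, the transcription factor that AKT holds out of the nucleus, was higher on the ruptured side by 1.04 (FDR = 0.000439) and 0.93 (FDR = 2.92e-05), and lower with hCG, by −2.23 (FDR = 6.7e-10) and −2.32 (FDR = 5.99e-14). With TMM scaling, transcripts of the mTOR kinase and its partner raptor were higher with hCG on both sides. *Rptor* differed by 0.43 (FDR = 0.0125) on the unruptured and 0.99 (FDR = 2.13e-06) on the ruptured side. *Mtor* differed by 0.44 (FDR = 0.00242) and 0.45 (FDR = 0.00189). The median TPM of *Mtor* was 3.32 without and 3.48 with hCG on the unruptured side, and 3.48 and 3.41 on the ruptured side. Library totals only shifted the median log2FC of all genes to −0.25 and −0.33 in these comparisons, so the *Mtor* and *Rptor* values may depend on the scaling.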

How the data were processed

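RNA-seq libraries of 54 follicle sides in 4 groups were analysed. Per the study's methods, the authors aligned Smart-Seq2 reads to GRCm38 with HISAT2 and corrected counts for batches with ComBat-seq. The deposited tables hold an estimated count and a TPM value per gene and library, which the authors made from the aligned reads. The counting program, annotation and batches, and whether the deposited values precede the batch correction, are not given in the sources used here, so no within-batch comparison was made. Of the non-zero counts 72.2% were whole, and the others were rounded. TPM summed to 585982 to 678417 per library over the listed genes. No column was left without a sample.

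The expression filter of edgeR 4.0.16 was applied at a count of 10 and a total of 15, with TMM scaling and its two-sided quasi-likelihood test in R 4.3.3 (FDR 0.05), pairwise and for the interaction of side and hCG. Each SE is the log2FC divided by the root of the F statistic. Members under the filter were fitted without it and tested with two-sided permutation tests of log2(TPM + 1) with 100000 resamples in Python 3.11.15 with scipy 1.17.1, and levels, shares and likeness used TPM and log2(TPM + 1). Likeness used genes averaging 1 TPM or more with counts in 27 or more libraries, with group means removed, and the 3 highest r were named. In the other pathway genes, the 3 largest log2FC in each direction per comparison were named, with *Igf2r*, *Rxfp2* and *Pappa*. *Stc2* between the sides, *Foxo1* between the media, and *Rptor* and *Mtor* on the unruptured side were named after their values were seen. The members and lists were chosen with earlier results of these data known. Positions are those of GENCODE M21 and promoters those of RefSeq. The scripts were tested on simulated data. Alternatives were DESeq2 1.42.0, RLE factors, library totals only, no filter, a mean of at least 20 counts, all 4 groups in 1 fit, thinned counts, limma 3.58.1 on log2(TPM + 1) or log2(TPM + 0.1), the replicate number as a block, and single libraries left out. Those left out beyond putative unruptured replicate 7 were chosen after seeing the data, because they held oocyte transcripts or over 25% of a member's counts in their group.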

Additional observations from a re-analysis of the deposited data

Results flagged for a closer look

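The effect of hCG differed between the sides, by the interaction term of edgeR with Benjamini-Hochberg adjustment, for 3 members and for *Igf2r*, *Irs1* and *Jak3*. The term was −1.73 for *Igfbp5* (FDR = 0.00183): hCG differed by −2.74 on the ruptured side and by −1.02 on the unruptured side. It was −1.44 for *Igf1* (FDR = 0.0361), with −6.08 and −4.65. It did not pass without the expression filter (FDR = 0.0588), without unruptured replicate 4 (FDR = 0.0763) or without ruptured replicate 4 (FDR = 0.0519). The term was −4.33 for *Insl3* (FDR = 0.0464), where the ruptured side post-hCG held 7 counts over 13 libraries. The *Insl3* term did not pass without the filter (FDR = 0.066), without any of 4 single libraries (FDR from 0.0519 to 0.153), or by limma on log2(TPM + 1) (−1.19, FDR = 0.473). It was −0.88 for *Igf2r* (FDR = 0.00089), with −1.23 and −0.36, −1.13 for *Irs1* (FDR = 0.0266), with −3.51 and −2.39, and −0.84 for *Jak3* (FDR = 0.0366), with −0.58 and 0.25. Samples far from their group were not searched for by a rule, since every group held more than 10 libraries.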

How the results depend on the processing

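Members' counts of calls stayed within 1.5 times the reported ones except for the interaction, where 1 of 10 members passed without the expression filter (3 with it). The split without hCG was 1 higher and 5 lower by limma, against 3 and 3. For the other pathway genes, the count without hCG was 8 by limma on log2(TPM + 1) without the filter (13 by edgeR). With hCG on the unruptured side it was 11 by limma at either pseudocount and 12 without the filter (19 by edgeR). For the interaction it was 4 with a mean of at least 20 counts, 1 by limma, 0 by limma without the filter and 4 with the replicate block (2 by edgeR, 3 by DESeq2). Of the members' log2FC values under alternatives, 629 kept direction and call, 17 gained a call, 27 lost one and 22 reversed. By limma, *Insr* between the sides post-hCG was −0.077 (−0.082 with a pseudocount of 0.1), *Igf1r* with hCG on the ruptured side −0.097 (−0.11), and the *Igfbp4* interaction 0.20 (0.21), with the same values at log2(TPM + 1) without the filter. With library totals only, *Igf1r* with hCG was −0.079 and −0.18 on the unruptured and ruptured sides, and on the ruptured side *Insr* was −0.0063 and *Igfbp4* −0.050. With thinned counts the *Igf1r* interaction was 0.018. Libraries left out gave ranges of −0.024 to 0.61 for *Igfbp4* with hCG on the unruptured side, −0.051 to 0.0036 for the *Igf1r* interaction, and −0.37 to 0.27 for the *Igfbp4* interaction. Without unruptured replicate 4, *Igf1* between the sides post-hCG was 0.0034 without the filter, and without putative ruptured replicate 12 *Igfbp3* with hCG on the ruptured side was 0.68. The causes were not tested.

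Same-numbered libraries showed no steady likeness: their deviations from group means correlated from −0.25 to 0.41. The labels do not say which sides came from the same follicle, so neither these values nor a block on the number can test such pairing. The tests between the sides took libraries as independent, although both sides of a follicle may be among them. With the replicate number as a block, 8, 6, 6, 4 and 2 members passed in the 4 comparisons and the interaction. Between the sides without hCG *Insl3* (−2.31, edgeR FDR = 0.03) and *Igfbp3* (−2.78, FDR = 0.0103) were added, and the *Insl3* interaction had an FDR of 0.0612. *Igfbp4* with hCG on the unruptured side was −0.016 and its interaction 0.28 in the block fit.

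Depth limits *Igf2*, *Rxfp2* and the *Insl3* and *Igf1* values post-hCG, which rest on few counts. Batches are not given in the labels, so they and the groups cannot be told apart.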
